A study of Mus musculus with 4 samples.

Results

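Endothelial cells line every blood vessel of the kidney. Here they were chosen by the measured counts themselves, as the cell barcodes that carried a UMI (unique molecular identifier, 1 captured RNA molecule) of at least 3 of 7 endothelial genes, Plvap, Emcn, Kdr, Pecam1, Flt1, Cdh5 and Egfl7, with no UMI of the leukocyte gene Ptprc and at most 10 UMIs of the proximal tubule gene Slc34a1. Of 52478 barcodes in the study, 41076 had at least 300 genes and at most 50% mitochondrial UMIs, and 2323 of those were endothelial by this rule. The study followed the kidney response to FGF23, a hormone of phosphate balance, with single-cell RNA profiles from a droplet method that counts the 3' ends of transcripts. The mice were C57BL/6 animals of 10 weeks, and kidneys of males and females were combined in each library. The 0 h library received 0 µg of FGF23, and the libraries at 1, 4 and 12 h came from mice given a single intraperitoneal injection of 10 µg of recombinant human FGF23. Digested kidneys of every group passed through red cell lysis and removal of Annexin V-positive dying cells, so cells that bind Annexin V were not sampled. There was 1 library per group, and the 3 later libraries were all compared with the same 0 h library. No difference between times therefore has a replicate check, intervals cover counting error only, and no p-value is given. The control carries the label 0 h, but its matrix is named for a saline sample taken at 1 h. The text keeps to the label.

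The renal circulation runs from arteries through glomerular capillaries into peritubular capillaries, with the vasa recta supplying the medulla and veins and lymphatics draining the organ. Each of these beds has its own endothelium: that of peritubular capillaries is fenestrated and carries the diaphragm protein encoded by Plvap, while that of the descending vasa recta passes water and urea through channels encoded by Aqp1 and Slc14a1. FGF23 signals through FGF receptors together with the co-receptor Klotho (gene Kl), which is made mainly by tubule cells. Endothelial cells respond within minutes to flow, growth factors and tissue handling by switching on immediate early transcription factor genes such as Fos and Egr1.

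In order of time (0, 1, 4 and 12 h, the order of every set of 4 values here), the rule found 430, 425, 684 and 784 endothelial barcodes. Their share of the barcodes that passed the filters was 4.25% (95% Clopper-Pearson interval 3.86 to 4.66), 4.48% (4.08 to 4.92), 6.15% (5.71 to 6.61) and 7.57% (7.07 to 8.10). The 4 and 12 h shares lay above both earlier ones beyond counting error. Such a share also depends on how well cells of other types survived digestion, which was not measured. The cells were small in RNA content, with medians of 2443.5, 2571, 2561.5 and 2443 UMIs per barcode, against 10953, 12095.5, 11476.5 and 10156 in the other barcodes. Mitochondrial UMIs made up a median of 5.71%, 4.19%, 3.15% and 4.80%. With a mitochondrial limit of 25% the shares of passing barcodes were 6.29%, 7.11%, 8.06% and 10.8%. Few barcodes sat at the border of the rule: 8, 5, 15 and 11 endothelial barcodes had exactly 3 of the genes, and 6, 5, 6 and 12 barcodes that met every other condition had 2. All 7 genes were detected in 201, 210, 343 and 420 of them. The absence of Ptprc removed 18, 17, 24 and 37 barcodes, and the limit on Slc34a1 removed 53, 42, 65 and 79. At that limit, 4, 0, 2 and 3 barcodes had 9 or 10 Slc34a1 UMIs, and 2, 1, 4 and 3 had 11 or 12.

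The label held against endothelial genes that the rule had not used. All 25 genes of such a list, among them the receptors Tie1 and Tek, the transcription factor Erg and the junction protein Cldn5, were detected in every library and were higher in the endothelial than in the other barcodes in each. Their summed level was 18020, 18905, 20327 and 18267 CPM (UMIs of a gene scaled to a common library total) in endothelial barcodes and between 652 and 709 CPM in the others. A UMI of Tie1 was found in 62.6%, 64.7%, 65.8% and 60.5% of endothelial barcodes and in 0.609%, 0.652%, 0.709% and 1.00% of the others. RNA of other cells was also present. Kap, an abundant proximal tubule RNA, gave a UMI in 91.2%, 81.4%, 79.7% and 73.7% of endothelial barcodes. The share was larger in the other barcodes of each library, with 96.9% at 0 h, so a Kap UMI was found in most barcodes of any kind. The 12 proximal tubule markers summed to 7487, 3296, 3928 and 6166 CPM in endothelial barcodes and to 53426 CPM or more in others. All 12 were lower in endothelial barcodes in each library. Of the 12 leukocyte markers, none was higher in endothelial than in other barcodes at 0 and 1 h, 3 were at 4 h and 2 at 12 h, and their sum was 164 to 393 CPM, with Ptprc at 0 by the rule. Some markers of other cells were higher in endothelial barcodes. The 8 pericyte and smooth muscle markers summed to 1331, 1322, 1560 and 472 CPM against 119, 62.8, 89.1 and 33.0 CPM in the others, with 7, 7, 8 and 8 of them higher. The podocyte list of 6 genes summed to 724, 748, 634 and 651 CPM against at most 21.1 CPM, with 3, 4, 3 and 3 genes higher, and it holds Podxl, which is also in the endothelial list. The 5 erythroid genes were at 11.9, 1.59, 244 and 8.39 CPM, above the other barcodes only at 4 h (3.66 CPM). Outside the mixed groups defined next, the smooth muscle sum was 173, 28.5, 144 and 30.5 CPM and the erythroid sum at 4 h was 16.1 CPM, while the podocyte sum was 879, 866, 746 and 777 CPM. The part of this RNA in the results was not tested.

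Sub-clustering without the genes of the response lists, except those that also mark a vessel type, divided the endothelial barcodes into 16 groups. The 5 groups in which a tubule or smooth muscle marker list took at least 0.5% of the UMIs are called mixed below. They held 43, 25, 53 and 56 barcodes, 177 in all, or 7.62% of the members. These barcodes were rich in RNA and supplied 34.5%, 27.3%, 32.7% and 26.3% of all endothelial UMIs. Doublets were called from simulated pairs of barcodes, and 36 of the 72 barcodes in the largest mixed group were such calls, against 122 of 2323 over all members. Results are given for all members and, for part of the values, also without the mixed groups. A value given for all members alone may differ without those groups. Leaving them out keeps 2146 barcodes, whose proximal tubule marker sum was 2296, 1500, 1472 and 1923 CPM. The limit that defines the mixed groups was set after the data had been seen.

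Vessel types were visible among the other 11 groups. Since the same genes formed the groups, their leading genes are a description and not a test. Sub-clusters 0 (529 barcodes, led by Igfbp5 and Tcim) and 1 (482 barcodes, led by Npr3 and Esm1) were peritubular capillary-like, with 8 and 7 of the 8 markers of that bed above the rest. Sub-cluster 5 (113 barcodes) was descending vasa recta-like, with Aqp1 at 9143 CPM against 118 CPM in the other members and Slc14a1 at 936 against 14.1 CPM. Only 3 of the 6 markers of that bed were above the rest and detected in at least 10% of its cells. Another of the 6, Slco1a4, was at 0 CPM there and at 145 CPM in sub-cluster 10. Sub-cluster 12 (40 barcodes) was arterial-like and had all 12 arterial markers above the rest, among them the matrix Gla protein gene Mgp at 5099 CPM against 103 CPM. Sub-cluster 10 (47 barcodes) was venous-like, led by Ptn, Lbp and the von Willebrand factor gene Vwf. It also had the highest level of 7 of the 8 lymphatic markers, so it does not separate veins from lymphatics. No group met the rule for glomerular capillaries. Of their 9 markers, Ehd3 was at 474 CPM in sub-cluster 1 and at 19.2 CPM in arterial-like cells, while Pi16 was at 26.5 CPM in the former and 955 CPM in the latter.

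The remaining groups stayed unnamed. Sub-cluster 2 (282 barcodes) was led by Tnxb, Car8 and Tll1, and sub-cluster 3 (223) by the ligand gene Apln, its receptor gene Aplnr and Gpihbp1, which anchors lipoprotein lipase on capillaries. Sub-cluster 4 (137) was led by Tspan8, Mest, the calcitonin gene-related peptide gene Calca and Thbs2. Sub-cluster 7 (98) shared Calca, sub-cluster 8 (83) was led by Igf1 and Fibin, and sub-cluster 6 (112) by the interferon-stimulated genes Oasl1, Gbp5 and Ifit2. In the map of leading genes, some genes are high in more than 1 group. Igfbp5 was at 5322 CPM in sub-cluster 0 and at 7320 CPM in sub-cluster 1. Tcim was at 2412 CPM in sub-cluster 0 and at 2989 CPM in sub-cluster 7. Calca was at 587 CPM in sub-cluster 4 and at 889 CPM in sub-cluster 7.

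**Figure D1:**
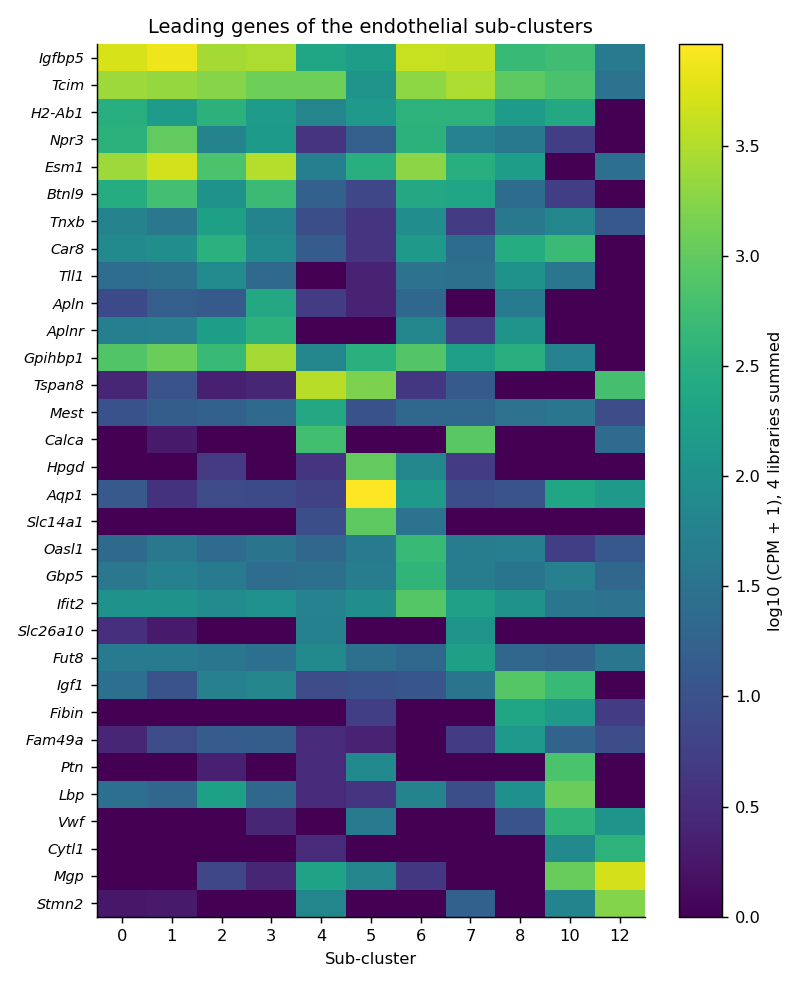
Level of the leading genes (rows) in each of the 11 sub-clusters that were not mixed (columns), as log10 of CPM + 1 over the summed UMIs of the 4 libraries. Aqp1 stands at 9143 CPM in sub-cluster 5, Mgp at 5099 CPM in sub-cluster 12 and Apln at 246 CPM in sub-cluster 3.

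Peritubular capillary-like cells made up 42.1% (37.4 to 46.9), 42.6%, 40.6% and 47.3% (43.8 to 50.9) of endothelial barcodes. That share counts sub-clusters 0 and 1 alone and depends on which groups were named. The marker Plpp3 was at 3066, 3229 and 3621 CPM in the unnamed sub-clusters 2, 3 and 6, against 3506 and 4492 CPM in sub-clusters 0 and 1. Another marker, Npr3, was at 57.2, 144 and 346 CPM against 346 and 1032 CPM. Descending vasa recta-like cells were 4.88%, 4.94%, 7.16% and 2.81%, and arterial-like cells numbered 12, 12, 8 and 8. Sub-cluster 4 held 8.60% (6.13 to 11.7), 7.76%, 7.16% and 2.30% (1.37 to 3.60) of endothelial barcodes, so its 12 h interval lay below that of every other library. Its leading genes Mest, Thbs2 and Calca were also lower at 12 h in the summed cells, and Olfm2, Hpgd and Gdf15, which lead the vasa recta-like group, were higher at 4 h. These shares are therefore a description only, and values within the groups are given with those genes.

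**Figure D2:**
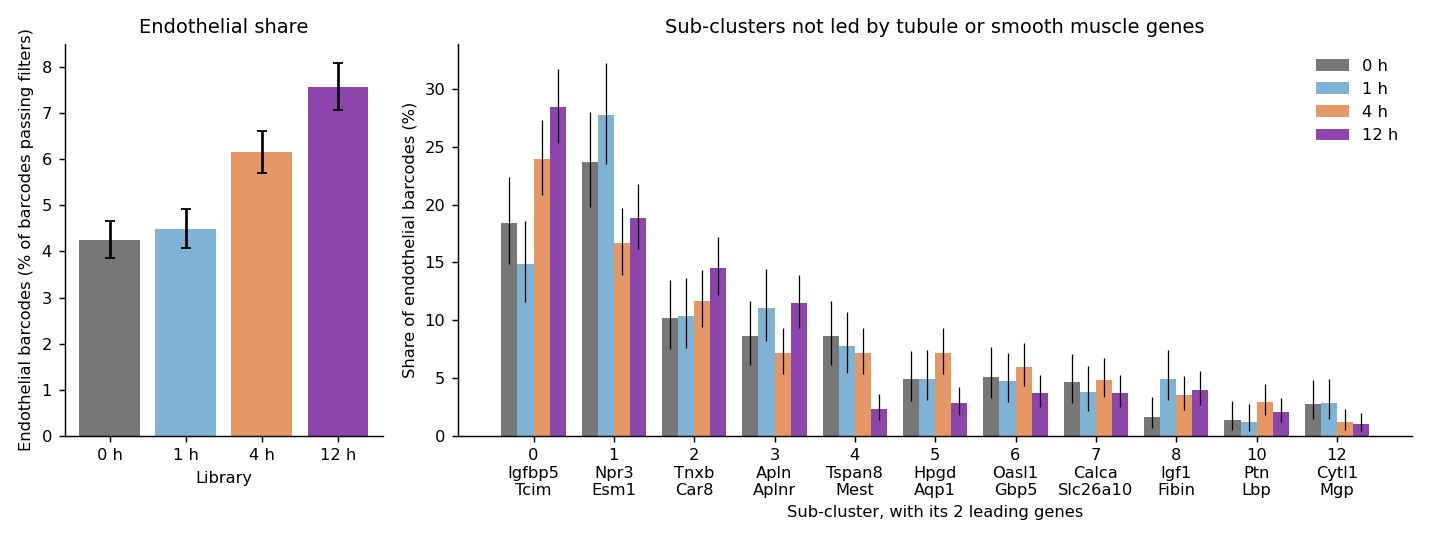
Left, endothelial barcodes as a percentage of barcodes passing the filters in each library; right, each sub-cluster that was not mixed as a percentage of the endothelial barcodes, with its 2 leading genes. Bars are 95% Clopper-Pearson intervals, and the left panel runs from 4.25% at 0 h to 7.57% at 12 h.

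Sub-cluster 6 was set apart by interferon-stimulated genes, the RNAs that cells make after interferon binds its receptor. A list of 20 such genes, of which only Rsad2 had entered the clustering, summed to 24166 CPM there and to between 6342 and 11172 CPM in the other groups that were not mixed. For 19 of the 20 genes the highest level of all 16 groups was in sub-cluster 6. Interferon-stimulated genes outside the list, such as Oasl1 and Gbp5, were not removed from the clustering as list genes. These list levels are therefore a description and not a test. The group was present in each library, with 22, 20, 41 and 29 barcodes, or 5.12%, 4.71%, 5.99% and 3.70% of the endothelial barcodes, and the 4 intervals of those shares overlapped. Its list level was 19317, 39022, 20480 and 20910 CPM. The 1 h value rested on 1 barcode of 12380 UMIs, and without it the level was 24154 CPM. Among other groups, sub-cluster 0 was at 10217, 10041, 10120 and 10118 CPM and sub-cluster 2 at 8805, 8255, 11115 and 9246 CPM, while sub-cluster 7 was at 12251, 8847, 11081 and 11602 CPM. The median log2 ratio of the list at 4 h to 0 h was 0.53 in sub-cluster 2, where genes with at least 20 UMIs were counted. In sub-clusters 0, 1 and 3 it was -0.10, 0.13 and 0.11.

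The starts of several of these genes hold the interferon-stimulated response element (ISRE), a site bound by the interferon-activated factor complex. The 250 bases before the start follow for 4 genes high in this group, 5' to 3' on the gene's strand from RefSeq (build GRCm38.p6), with the ISRE letters in capitals. They lie at chr4:156200819-156201068 (minus strand) for Isg15, chr19:34640639-34640888 (plus) for Ifit1, chr19:34583279-34583528 (plus) for Ifit3 and chr5:92348890-92349139 (minus) for Cxcl10. The run in the Isg15 start is made of 3 overlapping matches, Ifit1 and Ifit3 have 2 each, and Cxcl10 has 1.
Isg15: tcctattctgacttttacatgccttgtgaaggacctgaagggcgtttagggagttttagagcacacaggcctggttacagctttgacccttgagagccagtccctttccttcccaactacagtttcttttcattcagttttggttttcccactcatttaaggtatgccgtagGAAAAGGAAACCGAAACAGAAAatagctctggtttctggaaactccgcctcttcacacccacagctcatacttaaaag
Ifit1: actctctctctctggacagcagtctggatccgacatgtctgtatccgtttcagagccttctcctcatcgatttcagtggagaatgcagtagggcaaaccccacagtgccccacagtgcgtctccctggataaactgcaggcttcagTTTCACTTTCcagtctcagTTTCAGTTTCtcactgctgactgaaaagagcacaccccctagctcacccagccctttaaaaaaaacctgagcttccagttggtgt
Ifit3: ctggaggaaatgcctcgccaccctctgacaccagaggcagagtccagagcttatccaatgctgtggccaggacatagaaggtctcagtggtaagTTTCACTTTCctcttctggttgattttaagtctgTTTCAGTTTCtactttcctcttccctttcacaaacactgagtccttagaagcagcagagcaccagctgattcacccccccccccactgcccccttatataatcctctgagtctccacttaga
Cxcl10: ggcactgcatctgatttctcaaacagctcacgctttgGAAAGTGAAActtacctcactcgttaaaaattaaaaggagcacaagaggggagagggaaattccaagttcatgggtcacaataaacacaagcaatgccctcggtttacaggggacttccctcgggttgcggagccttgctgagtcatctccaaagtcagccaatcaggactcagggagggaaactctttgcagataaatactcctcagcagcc
Both strands were searched for the ISRE by name. It was found in 10 of the 19 starts (52.6%) that RefSeq lists for 16 of the interferon genes, and in 978 of 32851 starts (2.98%) of all genes. Isg15, which encodes a ubiquitin-like protein, was at 1698 CPM in sub-cluster 6 and at 226 to 285 CPM in sub-clusters 0 to 2. Cxcl10, a chemokine that draws T cells, was at 1311 CPM there and at 8.49 CPM or less in sub-clusters 0 to 3. Its level in sub-cluster 6 rested on few cells: 1 barcode held 243 of the 286 UMIs at 1 h and another 69 of the 87 at 12 h, and without the first the level was 491 CPM.

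For the comparisons over time, UMIs of all endothelial barcodes were summed per library, and a gene was counted as higher or lower when it differed at least 2-fold from 0 h. Only genes that reached 50 UMIs in the pair of libraries compared were counted. At 1 h, 46 of 8446 genes were higher (0.545%) and 76 were lower (0.900%). At 4 h, 113 of 9117 were higher (1.24%) and 113 were lower (1.24%). At 12 h, 83 of 8839 were higher (0.939%) and 224 were lower (2.53%). The median log2 ratio of all genes tested was 0.10, 0.04 and -0.01 in the 3 later libraries. Scaling moved the split: median-of-ratios scaling gave 32 higher and 96 lower at 1 h, TMM scaling gave 30 and 101, and leaving mitochondrial UMIs out of the total gave 88 and 138 at 4 h. Without the mixed groups 20 genes were higher (0.287%) and 18 lower (0.258%) of 6974 at 1 h, 44 (0.584%) and 94 (1.25%) of 7530 at 4 h, and 57 (0.764%) and 179 (2.40%) of 7461 at 12 h. Of the genes called in all members, 11 and 8 were also called without the mixed groups at 1 h, 31 and 38 at 4 h, and 40 and 126 at 12 h. The 12 h library thus had the most lower genes in either set.

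Among the lists, the immediate early genes had the most lower members at 12 h. Of 20 listed genes, 15 had enough UMIs at 12 h, and 11 were at least 2-fold lower (0 higher, median log2 ratio -1.58), where 2.53% of all genes were lower. Without the mixed groups 10 of 14 were lower (median -1.45). At 4 h 2 of 16 were lower, Nr4a1 and Nr4a2 (median -0.58), and at 1 h 0 of 16 differed 2-fold in either direction (median -0.02, or -0.27 without the mixed groups). In the other kidney barcodes the medians were 0.45, -0.36 and -1.04 at 1, 4 and 12 h. The median at 1 h differed between sexes: cells were called male by a Y-linked UMI without Xist and female by the reverse. It was -0.99 over the 121 and 117 male-called cells at 0 and 1 h, with 12 of 13 genes below 0 and 6 at least 2-fold lower, and 0.66 over the 146 and 177 female-called cells, with 0 of 14 below 0. At 4 h 7 of 13 were lower in male-called cells (median -1.38) and 1 of 13 in female-called cells (0.25). Of all genes tested in male-called cells, 112 of 4318 were lower at 1 h and 101 of 5125 at 4 h. In female-called cells 163 of 6324 were lower at 4 h. The 12 h medians of the list were -1.94 for male-called cells and -0.92 for female-called ones. These are cells of pooled kidneys, and the number of animals behind each sex is not given in the labels, so the split carries no replicate either.

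Fos (ENSMUSG00000021250, chromosome 12, 85473890 to 85477273), a subunit of the AP-1 transcription factor, had 694, 627, 798 and 125 UMIs at 0, 1, 4 and 12 h, or 344, 333, 269.9 and 47.7 CPM. The 12 h library stood below the other 3, at a log2 ratio of -2.85 (-3.14 to -2.58) to 0 h. It was detected in 20.7% of endothelial barcodes at 0 h and in 3.95% at 12 h. A single barcode held 48% of the 12 h UMIs, in a mixed group, and the ratio without the mixed groups was -3.60. Its partner Junb was at 604, 533, 419.5 and 195 CPM, a log2 ratio of -1.63 (-1.78 to -1.48) at 12 h. Jun, which pairs with Fos in AP-1, was at 1407, 1317, 1393 and 667 CPM, so only the last library was apart (-1.08, -1.16 to -0.99). Egr1, a zinc finger factor induced by growth factors, had 235, 291, 185 and 56.4 CPM, with the highest value at 1 h and the lowest at 12 h (-2.06, -2.33 to -1.79). In the other barcodes Egr1 was at a log2 ratio of 2.35 at 1 h, against 0.31 (0.13 to 0.49) in endothelial ones, and -0.15 without the mixed groups.

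Nr4a1 (chromosome 15, 101254269 to 101274795), an orphan nuclear receptor gene, was low earlier. It was at 72.9 and 91.9 CPM at 0 and 1 h and at 13.5 and 12.6 CPM at 4 and 12 h, with log2 ratios of -2.43 (-2.97 to -1.92) and -2.53 (-3.13 to -1.98). The share of barcodes with an Nr4a1 UMI was 19.8%, 22.1%, 4.39% and 3.44%. Nr4a2 had 34, 47, 16 and 14 UMIs and followed the same order of libraries, with -1.64 and -1.66 at 4 and 12 h. The RNA decay factor gene Zfp36 and the antiproliferative gene Btg2 were lower at 12 h alone, at -1.60 and -1.63.

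**Figure D3:**
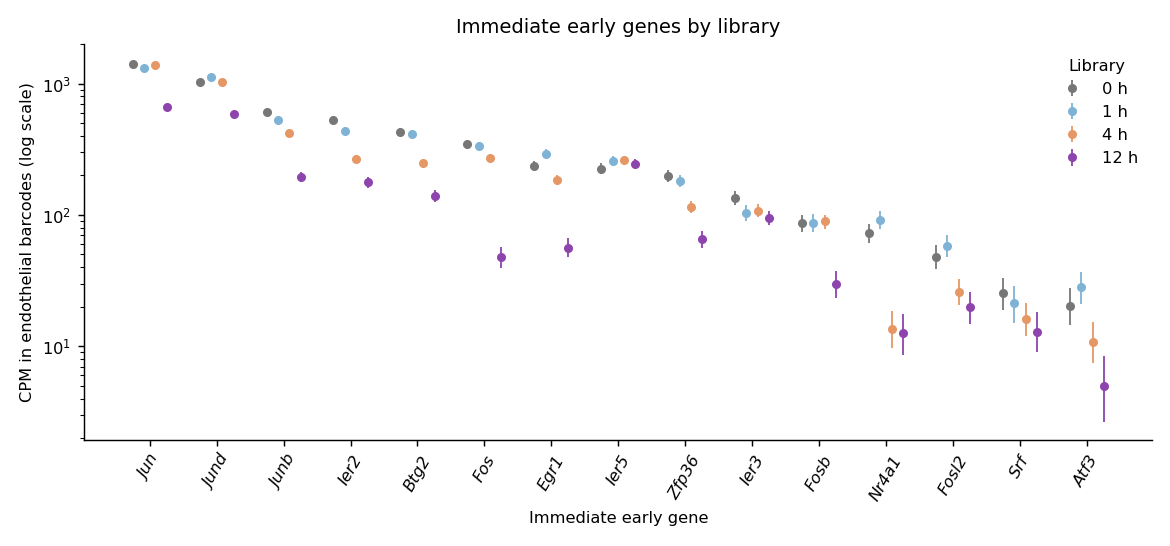
CPM of the immediate early genes in the summed endothelial barcodes of each library (log axis), with exact Poisson 95% intervals. The 12 h points lie lowest for most genes, as for Fos at 47.7 CPM against 344 CPM at 0 h, while Nr4a1 is also low at 4 h.

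The lower level was found within several sub-clusters, to different degrees. Within sub-clusters 0, 1, 2 and 3 the 12 h medians of the immediate early list were -0.51, -1.03, -0.86 and -1.11. Genes with at least 20 UMIs were counted here. At 4 h the medians were 0.22, -1.15, -0.29 and -0.35, so sub-cluster 1 was already low at 4 h. Fos was at -2.86 (-4.40 to -1.48) in sub-cluster 0, -2.77 (-4.19 to -1.58) in sub-cluster 1, -2.59 (-4.23 to -1.33) in sub-cluster 4 and -2.83 (-3.96 to -1.87) in the vasa recta-like cells. The list level itself differed between groups at 0 h, from 2197 CPM in the venous-like cells to 8761 in sub-cluster 4 and 8687 in arterial-like cells among the groups that were not mixed. With sub-clusters weighted to their 0 h shares the 12 h median over all members was -1.47. Junb in sub-cluster 0 was at -0.25 (-0.80 to 0.34), an interval that includes 0, and at -3.21 (-4.72 to -1.99) in the vasa recta-like cells.

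Genes that flow keeps on in endothelial cells were also lower at 12 h in part. Klf2 and Klf4 encode factors induced by shear stress, and Nos3, Thbd and S1pr1 encode the nitric oxide synthase, the anticoagulant thrombomodulin and a barrier-protecting receptor. Of 9 genes of this list measured at 12 h, 2 were at least 2-fold lower and 0 higher (2.53% and 0.939% of all genes), with a median of -0.58 (0.15 in the other barcodes). Klf4 (chromosome 4, 55527143 to 55532466) was at 607, 640.0, 478 and 223 CPM, lowest at 12 h at a log2 ratio of -1.44 (-1.59 to -1.30). S1pr1 was at 297, 329, 219.5 and 135 CPM (-1.13, -1.33 to -0.94). Klf2 was at 2131, 2338, 1783 and 1304 CPM, which did not reach 2-fold (-0.71, -0.77 to -0.64). Within sub-clusters 0, 1, 2 and 3 the 12 h ratios of Klf4 were -0.38, -0.40, 0.34 and 0.28, all with intervals including 0. In sub-cluster 4, where the Klf4 level was highest, its ratio was -0.91 (-1.30 to -0.55). At 4 h it was 1.01 (0.35 to 1.71) in sub-cluster 2 and 0.82 (0.24 to 1.44) in the vasa recta-like cells, against -0.35 over all members. With cells weighted equally the Klf4 ratio at 12 h was -0.62.

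Glucocorticoid-responsive genes were a further group. Of 16 measured at 12 h, 6 were at least 2-fold lower and 0 higher, where 2.53% of all genes were lower (median -0.80, or -0.87 without the mixed groups), against -0.33 in the other barcodes. They were Tsc22d3, Per1, Cdkn1a, Ddit4, Dusp1 and Zfp36, of which Per1, Dusp1 and Zfp36 also stand in another of the lists. Cdkn1a, the cell cycle inhibitor p21, was at 327, 393, 299 and 105 CPM (-1.63, -1.84 to -1.43), and its share of positive barcodes went from 49.8% at 0 h to 24.6% at 12 h. Cdkn1a was at -1.81, -1.66, -1.55 and -2.01 in sub-clusters 1, 2, 3 and 4. Within sub-clusters 0, 1, 2 and 3 the 12 h medians of the list, over genes with at least 20 UMIs, were -0.48, -0.76, -0.08 and -0.73. Sgk1, a kinase gene of the same list, was not lower: it stood at 755, 737, 859 and 937 CPM, a ratio of 0.31 at 12 h, whereas it was at -1.66 in the other barcodes. In female-called cells the list median was -0.24 at 12 h.

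The comparison at 4 h was led by genes other than these. Cyp26b1 (chromosome 6, 84571414 to 84593908), which encodes an enzyme that breaks down retinoic acid, had 305, 325, 67 and 217 UMIs, or 151, 173, 22.7 and 82.7 CPM. The 4 h library was the lowest of the 4 and the 12 h library lay between it and the first 2. The log2 ratio was -2.74 (-3.14 to -2.35) at 4 h. The 12 h ratio was -0.87 (-1.13 to -0.61), and no barcode held more than 6.9% of its UMIs in any library. Barcodes with a Cyp26b1 UMI were 31.4%, 32.5%, 7.31% and 15.7% of the members. The 4 h ratio was -3.30 in sub-cluster 0, -2.56 in sub-cluster 1, -3.08 in sub-cluster 2 and -3.25 in sub-cluster 7, each with an interval wholly below -1. The male-called cells gave -2.23 and the female-called cells -2.85. In the other barcodes it was -1.77, at a level that the endothelial barcodes exceeded.

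Other lower genes at 4 h encode secreted signals and matrix enzymes. The neurotrophin gene Ntf3 was at 39.2, 43.6, 16.9 and 56.1 CPM, lowest at 4 h (-1.21, -1.75 to -0.68) and highest at 12 h. Inhbb, the activin B subunit, was at 33.2, 43.6, 13.9 and 21.4 CPM (-1.26, -1.86 to -0.68). The matrix protease gene Adamts1 was at 122, 99.3, 46.0 and 55.3 CPM, low in both later libraries (-1.41 and -1.14). Of the vascular tone and coagulation list, Adamts1 and Vwf were the 2 of 15 genes that were lower at 4 h (1.24% of all genes). Vwf had 56, 29, 25 and 41 UMIs, and a single barcode held 33.9%, 34.5%, 36% and 29.3% of them. Fn1 and Nebl were also lower at 4 h, at -1.67 and -1.35. Scd1 and Serpina1f were at -0.42 and -0.15 when sub-clusters were weighted to their 0 h shares, against -1.30 and -1.27 as summed.

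Among genes higher at 4 h, several belonged to the vasa recta-like cells. Olfm2 (chromosome 9, 20667690 to 20746349), an olfactomedin-family gene, had 6, 37, 95 and 16 UMIs, and its log2 ratio was 3.43 (2.26 to 4.92) at 4 h. Within sub-cluster 5 it went from 6 UMIs at 0 h to 87 at 4 h, a ratio of 2.22 (1.04 to 3.71). Gdf15, a stress-related TGF-beta family hormone, had 40, 60, 218 and 32 UMIs (1.89, 1.40 to 2.42), and within sub-cluster 5 the ratio was 3.19 (2.04 to 4.66) from 6 UMIs at 0 h. Hpgd, which degrades prostaglandins, was at 49.6, 78.1, 122 and 62.2 CPM (1.30), but at 0.36 within sub-cluster 5. The chemokine-binding receptor gene Gpr182 was at 12.4, 24.4, 38.6 and 41.9 CPM, with log2 ratios of 1.64 at 4 h and 1.76 (1.12 to 2.45) at 12 h. Serpinb6b, highest in the venous-like group, was at 11.9, 20.7, 45.3 and 27.8 CPM (1.93 at 4 h). Ren1, the renin gene of juxtaglomerular cells, reached 1276 UMIs at 4 h from 47 at 0 h, but 1165 of them lay in 1 barcode of the smooth muscle mixed group that was a doublet call, while at 0 h 41 of the 47 lay in 1 barcode of the vasa recta-like group. Without the mixed groups Ren1 had 44, 1, 3 and 2 UMIs, so its ratio of -4.47 there rests on that single 0 h barcode. Slc26a4, Plet1 and Aqp6 were higher as well, at 1.69, 1.64 and 1.33, and had too few UMIs to be counted once the mixed groups were left out.

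**Figure D4:**
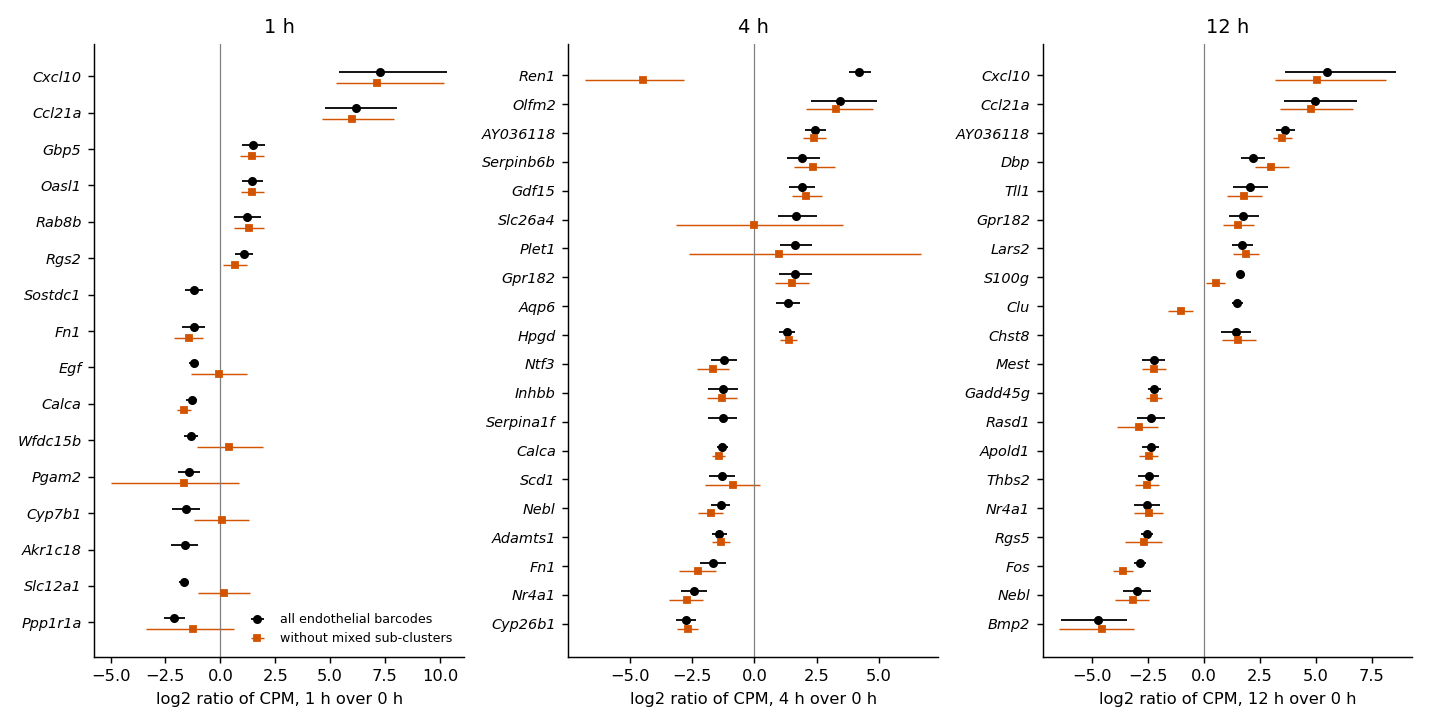
Log2 ratio of CPM to 0 h for the named genes at 1, 4 and 12 h, with 95% counting intervals. Black points are all endothelial barcodes and orange squares those outside the mixed groups, and Cyp26b1 at 4 h is at -2.74 in the former and -2.66 in the latter. Ren1 at 4 h moves from 4.21 to -4.47, the latter on 44 and 3 UMIs.

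At 1 h only 6 genes met the conditions for naming among those that were higher. Cxcl10 went from 2 UMIs at 0 h to 290 at 1 h (log2 ratio 7.28, 5.41 to 10.33), with 11 UMIs at 4 h and 119 at 12 h. Of the 290 UMIs, 243 lay in the same barcode that set the 1 h level of the interferon-rich group, and 47 in all others. That barcode also held 60 of 133 UMIs of Oasl1 and 44 of 113 of Gbp5, and without it their ratios were 0.60 and 0.79 in place of 1.45 and 1.49. The lymphatic chemokine gene Ccl21a had 4, 267, 93 and 161 UMIs, and 266 of the 267 at 1 h came from 1 barcode of the venous-like group. At 12 h 90 of the 161 lay in 1 barcode of that group that was a doublet call, and 71 in all others. Rab8b, a vesicle transport gene, was spread more evenly, with 35, 77, 104 and 61 UMIs and at most 5.7% in 1 barcode (1.24 at 1 h, 0.64 to 1.86). Rgs2, which dampens G protein signals, was at 35.7, 75.4, 43.3 and 28.6 CPM (1.08), and at 0.68 without the mixed groups.

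Most named genes that were lower at 1 h are tubule genes. Slc12a1, the salt transporter of the thick limb, had 621, 184, 413 and 473 UMIs (-1.66 at 1 h), and at 1 h 48.4% of them lay in 1 barcode. Without the mixed groups its ratio was 0.15, and that of Egf was -0.05 in place of -1.21. The largest tubule-mixed group had 18 barcodes at 0 h and 4 at 1 h. Ppp1r1a, Cyp7b1 and Wfdc15b, at -2.09, -1.55 and -1.33, were at -1.22, 0.06 and 0.41 without the mixed groups, and Akr1c18, Pgam2 and Sostdc1 were then too rare to be counted. Calca and Fn1 remained lower: Calca was at 240.4, 98.3, 98.4 and 57.6 CPM, and its 1 h ratio was -1.29, or -1.65 without the mixed groups. Within sub-cluster 7 Calca was at -1.80 (-2.41 to -1.21) at 4 h and -0.26 at 12 h, and within sub-cluster 4 at -0.41 and 0.30.

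Several of the named genes that were lower at 12 h had their highest levels in arterial-like cells, in sub-cluster 4 or in the smooth muscle mixed group. Bmp2 (chromosome 2, 133552159 to 133562885), a morphogen gene, had 102, 99, 81 and 5 UMIs, or 50.6, 52.6, 27.4 and 1.91 CPM, and the 12 h library lay far below the rest (-4.73, -6.38 to -3.46). Its levels were 89 CPM in sub-cluster 4, 175 in the smooth muscle mixed group and 161 in arterial-like cells, and at most 1.83 CPM in sub-clusters 0 to 3. Nebl was at 81.3, 88.2, 31.8 and 10.3 CPM (-2.98), Thbs2 at 104, 90.8, 73.4 and 18.7 CPM (-2.47) and Mest had 151, 112, 128 and 42 UMIs (-2.22). When sub-clusters were weighted to their 0 h shares, these 4 ratios were -3.25, -1.68, -1.66 and -1.74. Within sub-cluster 4, where 37 barcodes at 0 h were compared with 18 at 12 h, Bmp2 was at -2.24 (-5.34 to -0.30), Thbs2 at -1.20 (-2.11 to -0.40) and Mest at -1.40 (-2.57 to -0.42), while the interval of Nebl included 0. Rgs5, a pericyte gene, was at 372, 354, 304 and 63.7 CPM (-2.55), most of it in the smooth muscle mixed group, and at -0.92 when weighted. Apold1, an endothelial stress gene, was at 149.7, 116, 65.0 and 28.6 CPM (-2.39), and at -2.43 within sub-cluster 1 and -1.88 within sub-cluster 4. Rasd1 and Gadd45g, lower at -2.35 and -2.22, were at -1.58 and -1.39 when weighted.

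Ligand genes of arteries were also lower at 12 h. Jag1 and Jag2 encode Notch ligands that arterial endothelium expresses. Jag1 was at 136.3, 136.5, 114 and 34.7 CPM (-1.97 at 12 h) and Jag2 at 108, 97.2, 75.4 and 47.3 CPM (-1.19), and they were the 2 of 10 measured genes of the Notch list that were lower, where 2.53% of all genes were. The receptor gene Notch1 was at 175.5, 209.3, 210.4 and 207.4 CPM. The vasoconstrictor gene Edn1 was at 89.7, 80.7, 102 and 41.6 CPM, lowest at 12 h (-1.11, -1.47 to -0.76), and the lymphatic growth factor gene Vegfc at 82.8, 80.7, 72.7 and 29.4 CPM, with a 12 h interval from -1.90 to -1.10. Jag1, Edn1 and Vegfc were all highest in arterial-like cells, at 998, 349 and 767 CPM, and arterial-like cells were 2.79% of the members at 0 h and 1.02% at 12 h. Within sub-cluster 5 Jag1 was at -0.25 at 12 h, with an interval that includes 0. Of the list of BMP and TGF-beta genes, 1 of 12 was lower at 12 h, Bmp6 (-1.73), against 2.53% of all genes. In that list 9 of 12 genes were above 0 at 12 h (median 0.23).

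Some genes with their highest levels in sub-cluster 1 (Esm1) or in the unnamed sub-cluster 3 (Gpihbp1 and Aplnr) had higher levels at 12 h. Esm1, a proteoglycan gene switched on by VEGF, was at 901, 1117, 1203 and 1858 CPM, the highest at 12 h (1.04, 0.97 to 1.12), but under 2-fold without the mixed groups (0.89), within sub-cluster 0 (0.57) and within sub-cluster 1 (0.54). Gpihbp1 was at 395, 468, 461 and 794 CPM (1.01, or 0.88 without the mixed groups) and the apelin receptor gene Aplnr at 42.6, 57.4, 43.3 and 85.0 CPM (1.00, just short of 2-fold). Of 12 genes of the VEGF, angiopoietin and apelin list, 1 was higher and 1 lower at 12 h (0.939% and 2.53% of all genes), and 11 were above 0 (median 0.50). Without the mixed groups 0 of 12 were higher. Dll4 was at 0.41 and Tek at 0.47. Tll1 had 17, 35, 53 and 91 UMIs (2.04, 1.28 to 2.88), and its ratio was 0.49 within sub-cluster 2. It is a leading gene of that group at 80.3 CPM, but its level was highest in sub-cluster 8, at 103 CPM. Clu, at 1.48, was at -1.05 without the mixed groups.

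Some clock genes also differed between the libraries. Dbp (chromosome 7, 45705088 to 45710203), a clock-controlled transcription factor gene, was at 18.3, 17.5, 11.2 and 82.7 CPM, with 37, 33, 33 and 217 UMIs (2.17, 1.67 to 2.72 at 12 h). The ratio was 2.98 without the mixed groups, 4.00 within sub-cluster 1, where 2 UMIs at 0 h became 45, and 1.21 in the other barcodes. The ratio was 2.88 over male-called cells and 0.68 over female-called ones. Nr1d1, which represses the clock, was at 32.2, 35.6, 7.78 and 52.2 CPM, with its lowest value at 4 h (-2.05, -2.80 to -1.34). Per1, both a clock and a glucocorticoid-responsive gene, was at 36.2, 39.3, 18.3 and 9.15 CPM (-1.98 at 12 h). Cry1 was at 8.92, 8.50, 19.6 and 6.86 CPM, highest at 4 h (1.14). Of 7 genes of the Dbp phase list 0 were above 0 at 4 h (median -0.71) and 6 were above 0 at 12 h (median 0.49). At 12 h 1 was at least 2-fold higher, Dbp, and 1 lower, Per1 (0.939% and 2.53% of all genes). The 12 h list median was 1.30 over 4 genes in male-called cells and -0.39 over 3 genes in female-called ones. The time of day at which each group was sampled is not given in the labels, so hours after injection and hour of the day cannot be told apart.

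AY036118 was higher at 4 and 12 h in many cells. This long non-coding RNA (chromosome 17, 39847113 to 39848035) had 52, 79, 413 and 845 UMIs, or 25.8, 42.0, 139.7 and 322 CPM. Its 4 h ratio was 2.44 (2.02 to 2.88) and its 12 h ratio 3.64 (3.24 to 4.08), and it was detected in 10.5%, 15.5%, 39.3% and 59.3% of endothelial barcodes. In the other barcodes the ratios were 1.86 and 3.06, so the other barcodes showed it too. It overlaps the gene CT010467.1 on its own strand and Gm42418 on the other. Strand cannot tell its reads from those of CT010467.1. Nor can they be told from those of Gm42418 where counting by strand is not stated. Lars2, the mitochondrial leucyl-tRNA synthetase gene, was at 25.8, 22.8, 53.1 and 84.3 CPM (1.71 at 12 h, 1.53 in the other barcodes). The sulfotransferase gene Chst8 was at 12.4, 21.8, 22.7 and 33.2 CPM (1.42).

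**Figure D5:**
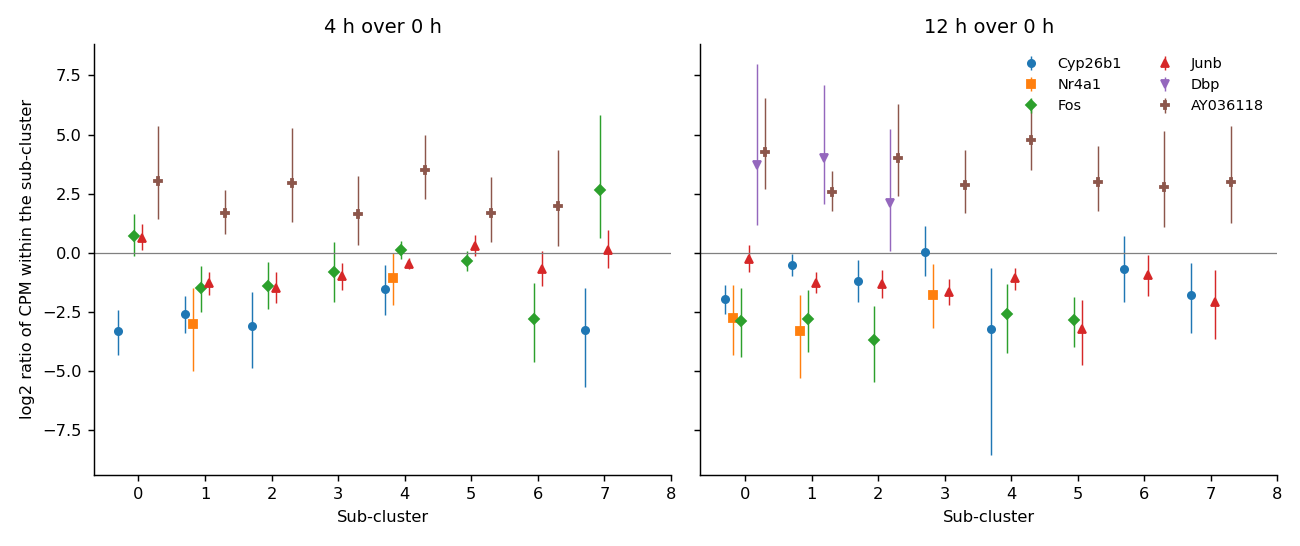
Log2 ratio of CPM to 0 h within single sub-clusters at 4 h (left) and 12 h (right), with 95% counting intervals, for Cyp26b1, Nr4a1, Fos, Junb, Dbp and AY036118. At 4 h Cyp26b1 lies between -1.52 and -3.30 in the groups with a value, and at 12 h AY036118 lies above 2.5 in each group with a value. Upper interval ends are drawn up to 8.

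The hormone's own receptors were scarce in these cells. Kl had 135, 73, 151 and 185 UMIs, with 31.1%, 49.3%, 21.9% and 21.6% of them in 1 barcode, and its level was 451 CPM in the largest tubule-mixed group against at most 16.3 CPM in any group that was not mixed. Fgfr1 was at 41.6, 40.4, 35.9 and 16.8 CPM, lowest at 12 h (-1.31, -1.87 to -0.77), and Fgfr3 at 39.2, 26.6, 24.4 and 11.4 CPM (-1.78, -2.43 to -1.15). Fgfr3 was highest in arterial-like cells, at 157 CPM. Fgfr4 had 7 UMIs or fewer in every library. Genes that report activity of the FGF and ERK pathway did not reach 2-fold as a group. Of 11 genes of the ERK feedback list measured over all members, 0 differed at 1 and 4 h, with medians of 0.19 and -0.06. The other barcodes had medians of 0.82 and 0.98. Within sub-clusters 0, 1, 2 and 3 the list medians at 1 h were -0.03, -0.21, 0.26 and 0.18. At 4 h they were -0.04, -0.03, -0.19 and 0.09, in both cases over genes with at least 20 UMIs. Spry4, which restrains receptor tyrosine kinases, was at 35.7, 31.9, 26.4 and 37.0 CPM, with log2 ratios of -0.16 (-0.68 to 0.35) and -0.44 (-0.92 to 0.05) at 1 and 4 h, where the other barcodes were at 1.49 and 1.54. Dusp6, the ERK phosphatase, was at 76.8, 81.3, 92.0 and 79.3 CPM (0.08, -0.25 to 0.41 at 1 h), against 1.69 in the other barcodes. Whether endothelial and other barcodes differ in these ratios was not tested, since there is 1 library per time. At 12 h 1 of 11 was lower, Dusp1 (-1.03), where 2.53% of all genes were, and without the mixed groups Dusp1 was at -0.95 and 0 of 11 were lower.

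Several lists showed little at the 2-fold level. Of the 20 interferon genes, 0 differed 2-fold at any time over all members, with medians of 0.25, 0.33 and 0.19 and 17 of 20 above 0 at 4 h. In male-called cells 9 of 20 were at least 2-fold higher at 1 h (median 0.84), against 0 of 20 in female-called cells (0.24). Of all genes tested, 90 of 4318 were higher in male-called cells at 1 h and 71 of 5469 in female-called cells. The interferon-rich barcode of the 1 h library was male-called, and without it 0 of 20 were higher in male-called cells (median 0.41). Isg15 was at 172, 284, 341 and 265 CPM, lowest at 0 h (0.99, 0.81 to 1.17 at 4 h). Of the 31 translation initiation genes, 0 differed at any time. In the heat shock list Hspa1a was at 189.9, 347, 262 and 69.4 CPM, highest at 1 h and lowest at 12 h (-1.45), and Hspa1b followed the same order (-1.30 at 12 h). Of 17 TNF and NF-kB genes, Cxcl10 at 1 and 12 h and Vcam1 at 4 h (1.05) were higher, and Tnfaip3 at 4 h and Traf1 at 12 h were lower. At 12 h 69 of the 119 Cxcl10 UMIs lay in 1 barcode. Without the mixed groups Vcam1 was at 0.93 at 4 h, under 2-fold, and Tnfaip3 had too few UMIs to be counted. The antigen presentation list had 0 genes past 2-fold at any time, and 12 of 13 were above 0 at 12 h (median 0.33).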

How the data were processed

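Single-cell gene expression was measured in 4 mouse kidney libraries, 1 per group. The deposited matrices hold raw UMI counts per gene and barcode, which the authors made with Cell Ranger 3.1.0, with STAR, Seurat and the build mm10 also named, per the submitters' processing notes. Barcodes had already been selected as cells by the authors, and the filters before deposit are not given in the sources used here. The libraries held 13398, 12245, 13813 and 13022 barcodes and 146107857, 146942826, 158838728 and 139675666 UMIs at 0, 1, 4 and 12 h, of which endothelial barcodes held 2017173, 1882825, 2956117 and 2622716. Between 36 and 57 barcode sequences were shared by any pair of libraries, and 1 among the endothelial ones.

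UMIs of the members were summed per library and scaled to CPM. Ratios to 0 h carry exact conditional binomial intervals and levels exact Poisson intervals, all at 95%. These cover counting error only. Genes with at least 50 UMIs over the pair of libraries were counted as higher or lower at 2-fold, with 0.5 added to each count. Printed ratios have nothing added. Sub-clusters came from Leiden clustering (resolution 0.8, 15 neighbours, 20 components, 1513 variable genes), without genes of the response and tubule lists other than vessel type markers. A sub-cluster took a vessel name when at least 1 marker stood among its top 10 genes, more than for any other type. At least 3 markers also had to be above the rest and detected in 10% of its cells. A tie in the top 10 was accepted where more than 2 in 3 markers met the second condition, as for the arterial-like and venous-like groups. That rule and the limit for mixed groups were set after the data had been seen, and names rebuilt in this way may differ from those of the study. Doublets were called against simulated pairs at a rate of 0.8% per 1000 barcodes and were kept, with an alternative that left them out. Cells were called female by a UMI of Xist without a Y-linked UMI and male by the reverse.

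Named genes were, for each time, up to 10 in each direction with at least 100 UMIs and the same direction in male-called and female-called cells, at a level in endothelial barcodes at least that of the others, plus the 3 genes of each response list with the most UMIs. Mitochondrial, ribosomal, haemoglobin, immunoglobulin, sex-linked and rule genes were left out. Other genes are named as counted members of a list or as markers, and were chosen with their values seen. The members and lists were chosen with earlier results of these data known. Gene positions are those of GENCODE vM21 (GRCm38), matched by gene identifier. Calculations used Python 3.11.15, numpy 2.4.6, scipy 1.17.1, pandas 2.3.3, scikit-learn 1.9.0 and leidenalg 0.10.2, and the scripts were tested on simulated data. Alternatives covered the rule, scaling, minimum count, weighting, thinning, sex, doublets, mitochondrial limit and clustering resolution.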

Additional observations from a re-analysis of the deposited data

Results flagged for a closer look

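Akr1c18, a steroid-metabolising enzyme gene of the proximal tubule, had ratios to 0 h of opposite sign at 1 and 12 h, -1.60 and 1.36 with 0.5 added to each count, a difference of -2.96. A single barcode held 64.2%, 58.6%, 70.5% and 58.6% of its UMIs in order of time. Rasd1, a Ras-like gene, and Gadd45g, a stress response gene, had opposite signs at 1 h in male-called and female-called cells. The difference was -3.39 for Rasd1 (-1.57 against 1.82) and -3.19 for Gadd45g (-2.14 against 1.05). None of these 3 differences was tested, since there is 1 library per time.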

How the results depend on the processing

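No paired analysis was possible because each group is 1 library. Leaving out the mixed sub-clusters, or the 1 h barcode richest in Cxcl10, were alternatives chosen after seeing the data. The latter gave an interferon median of 0.12 at 1 h. The median of the immediate early list at 12 h lay between -1.94 and -0.92 over all alternatives run for it, and the Cyp26b1 ratio at 4 h between -2.93 and -2.23. Of 87 values of named genes past 2-fold, 26 were under 2-fold with cells weighted equally and 25 with sub-clusters weighted to their 0 h shares. After thinning to 1000 UMIs per cell, 23 of 76 were under 2-fold. The count was 22 of 85 in female-called cells alone, 15 of 76 without the mixed sub-clusters, 8 without doublet calls and 3 under TMM scaling. Values in this section have 0.5 added to each count, and the cause of each shift was not tested.

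Counts of genes at 1, 4 and 12 h depended on the minimum. With at least 100 UMIs, 11 were higher and 37 lower, then 57 and 59, then 40 and 131. With at least 1 UMI they were 1597 and 1674, 1984 and 1626, and 1786 and 2021, with genes of very few UMIs included. Thinned to 1000 UMIs per cell, they were 14 and 18, 34 and 44, and 26 and 43, with fewer genes tested. Cells weighted equally gave 111 higher and 145 lower genes at 1 h and 214 lower at 4 h. Weighting sub-clusters to their 0 h shares gave 110 higher and 35 lower at 1 h, 63 lower at 4 h and 116 lower at 12 h. TMM scaling gave 30 higher at 1 h, and leaving out the mixed sub-clusters gave 20 higher and 18 lower at 1 h and 44 higher at 4 h. Male-called cells alone gave 90 higher at 1 h and 132 at 12 h, and female-called cells alone 71 at 1 h.

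Endothelial shares of passing barcodes were 6.29%, 7.11%, 8.06% and 10.8% with a mitochondrial limit of 25%. They were 3.82%, 5.67% and 7.03% at 0, 4 and 12 h without the mixed sub-clusters, and 4.05% and 5.68% at 1 and 4 h after thinning. At Leiden resolution 1.2 the peritubular capillary-like share was 34.4%, 35.1%, 34.2% and 41.6%.

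The immediate early median at 1, 4 and 12 h was -0.99, -1.38 and -1.94 in male-called cells and 0.66, 0.25 and -0.92 in female-called cells. It was -0.98 at 12 h after thinning and -0.27 at 1 h without the mixed sub-clusters. The shear stress median at 4 h was 0.07 with cells weighted equally, 0.14 after thinning, and -0.06 for each sex. It was -0.29 at 12 h after thinning, and 0.46 at 1 h and -0.41 at 12 h in female-called cells. The Dbp phase median at 12 h was 2.08 after thinning, 1.30 over male-called cells and -0.39 over female-called ones. The glucocorticoid median in female-called cells was 0.51, 0.33 and -0.24.

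Signs reversed for a few results. In male-called cells at 12 h these were the FGF receptor list (0.67), Akr1c18 (-1.71) and Ren1 (-6.33). In female-called cells they were Ren1 (3.42), Slc26a4 (-5.17) and Aqp6 (-6.64) at 1 h and Rasd1 (0.57) at 4 h. With sub-clusters weighted to their 0 h shares they were Slc12a1 (0.16), Wfdc15b (0.28), Egf (0.67) and Sostdc1 (0.34) at 1 h. Without the mixed sub-clusters they were Slc12a1 (0.15), Cyp7b1 (0.06) and Wfdc15b (0.38) at 1 h, Ren1 at 4 h (-4.26) and at 12 h (-4.70), and Clu at 12 h (-1.04). The Ren1 values in male-called cells and without the mixed sub-clusters rest on 1 male-called barcode. It lay in the vasa recta-like group and held 41 of the 47 UMIs at 0 h.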
